A study of Mus musculus with 12 samples.

Results

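The genes of glycolysis and of the pentose phosphate pathway were followed through RNA-seq of sorted thymic iNKT cells. They were chosen by name, as 33 enzymes, enzyme subunits and regulators of these pathways, and all 33 had a row among the 48709 rows of the deposited count table. Invariant natural killer T (iNKT) cells are T cells with a semi-invariant receptor for lipids presented by CD1d. The libraries were 3 each from miR-155KI NK1.1+, WT NK1.1+, miR-155KI NK1.1- and WT NK1.1- iNKT cells, 12 in all, from C57BL/6J mice of 7 weeks according to the labels. MiR-155KI mice carried a *Cd4*-Cre transgene and both copies of a Rosa26 allele from which Cre switches on miR-155. Their WT littermates carried the Rosa26 allele without Cre. In both genotypes CD8+ thymocytes were depleted and the cells were then sorted by TCRβ, CD1d tetramer, CD44 and NK1.1. *Cd4*-Cre acts throughout the αβ T lineage, so its action is not confined to iNKT cells. The NK1.1- pool joins early stages and subsets, while the NK1.1+ pool is mostly mature iNKT1 cells. The study's methods speak of pooled replicates and of a TruSeq kit, and the labels of a SMART-Seq kit for separate libraries. No label names the mice of a library, but the replicate numbers link WT libraries across the pools. In both pools WT replicate 1 differed from WT replicates 2 and 3 in sex-linked RNA, so its source was another one. Same-numbered WT libraries also varied jointly across genes (r = 0.338, 0.255 and 0.136 between the pools). Between the miR-155KI pools these r were 0.126, 0.083 and 0.067. A p-value here rests on how far apart the libraries of a group lie, and part of that distance may be technical.

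Library depth lay between 12819476 and 20518257 counts. *Mir155hg*, the host transcript of miR-155, had 116, 128 and 95.2 CPM (counts scaled to library size, TMM-normalized) in miR-155KI NK1.1+ cells, against 12.1, 11.7 and 11.2 CPM in WT NK1.1+ cells, and lay between 132 and 144 CPM in the miR-155KI NK1.1- libraries, against 9.65 to 13.7 CPM in WT NK1.1- cells. The libraries also differed in sex-linked RNA: WT replicates 2 and 3 of both pools had 135 to 237 CPM of *Xist*, the RNA of the inactive X, and 3.29 to 6.92 CPM of the Y-linked *Ddx3y*, whereas the other 8 libraries had 52.5 to 76.6 CPM of *Ddx3y*. Of the 33 genes, *Pgk1*, *G6pdx*, *Pdha1* and *Pdk3* are X-linked. *Klrb1c*, which encodes NK1.1, was higher in NK1.1+ than in NK1.1- cells of miR-155KI mice (log2 fold change 3.62) and of WT mice (2.88), and the 8 iNKT and T cell markers summed to 4572 to 8114 CPM per library.

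Glycolysis splits glucose into pyruvate. An energy-consuming stage (hexokinase, phosphofructokinase, aldolase) leads to the triose phosphates, and a payoff stage (glyceraldehyde-3-phosphate dehydrogenase to pyruvate kinase) returns ATP and NADH. Pyruvate is then reduced by lactate dehydrogenase or oxidized in mitochondria by pyruvate dehydrogenase, whose kinases (Pdk) switch it off. The pentose phosphate pathway branches off at glucose-6-phosphate, giving NADPH in its oxidative arm and ribose phosphate through its non-oxidative arm. Activated and dividing T cells are known for high glycolysis, and resting T cells for a low one. In bulk RNA of a sorted pool, fewer cells of a type and less RNA per cell cannot be told apart.

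All 33 genes were expressed at a level that passed the filter on low counts in every comparison. Their counts summed to 0.654% ± 0.018 of all counts in miR-155KI NK1.1+ libraries and 0.622% ± 0.032 in WT NK1.1+ libraries, and to 0.859% ± 0.065 in miR-155KI NK1.1- libraries and 0.937% ± 0.050 in WT NK1.1- libraries (SD, n = 3 each). Per kilobase of the longest coding transcript, the scale on which genes can be compared, *Ldha* had the highest mean level over the 12 libraries (624 CPM per kb), followed by *Eno1* (516), *Aldoa* (490.3) and *Pkm* (486 CPM per kb). Among the 33 genes, the aldolase, enolase and lactate dehydrogenase steps thus each had 1 abundant gene beside a much lower one. The lowest levels were those of *Hk2* (1.94), *Pfkfb2* (1.12) and *Aldoc* (0.793 CPM per kb), with *Aldoc* at 1.19, 0.117 and 2.40 CPM in the miR-155KI NK1.1+ libraries. *Gapdh* stood only in place 12 of 33 (75.4 CPM per kb). Its transcript matches 77 other annotated genes at 95% identity or more over at least 300 bases, 74 of which have rows of their own, and how reads with several matches were counted is not stated, so its level is uncertain.

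**Figure D1:**
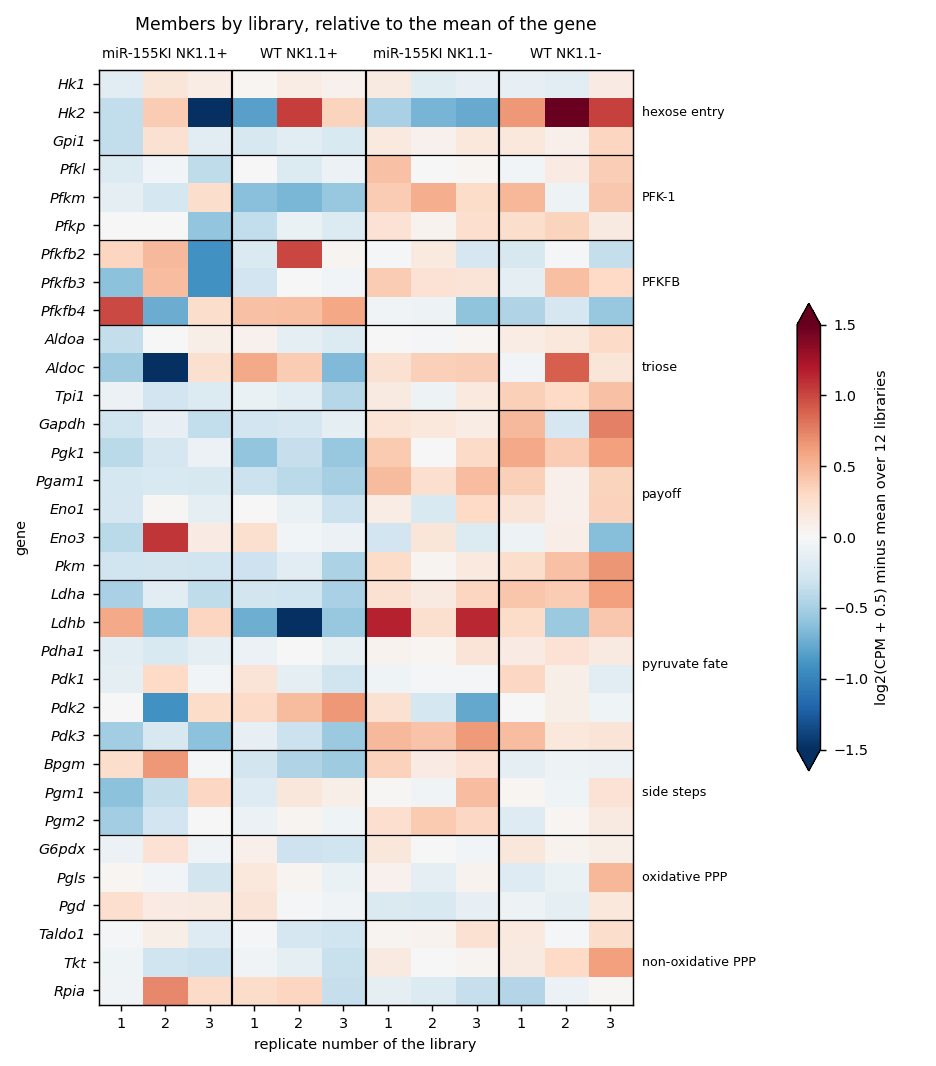
Level of each of the 33 genes (rows, grouped by step) in each of the 12 libraries (columns), as log2(CPM + 0.5) minus the mean of that gene over all 12 libraries; red is above and blue below the mean, and colours stop at 1.5 in either direction. The payoff genes and *Ldha* are mostly blue in the 6 NK1.1+ libraries and mostly red in the 6 NK1.1- libraries, and *Hk2* is blue in all 3 miR-155KI NK1.1- libraries and red in all 3 WT NK1.1- libraries.

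The first question was how the pathway genes differ between NK1.1+ and NK1.1- cells. In miR-155KI mice 6 of the 33 genes were lower in NK1.1+ than in NK1.1- cells and none was higher, where 6.15% of all genes tested were called lower and 7.92% higher, 14.1% in all (edgeR's quasi-likelihood test, Benjamini-Hochberg adjusted p under 0.05 over all genes). In WT mice 10 were lower and 1, *Pfkfb4*, was higher, where 10.9% of all genes tested were lower and 9.89% higher, 20.8% in all. An unadjusted p under 0.05 was reached by 13 of the 33 genes in miR-155KI mice (27.4% of all genes tested) and by 18 in WT mice (33.4%). As shares, 18.2% of the 33 genes were called lower in miR-155KI mice and 30.3% in WT mice. The median log2 fold change of the 33 genes was -0.26 in miR-155KI mice and -0.34 in WT mice, against 0.031 and 0.0079 over all genes tested. Values of NK1.1+ cells lay wholly below those of NK1.1- cells for 13 of the genes in miR-155KI mice (17.1% of all genes tested) and for 15 in WT mice (18.6%). They lay wholly above for *Pgd* and *Rpia* in miR-155KI mice (17.5% of all genes tested) and for *Pfkfb4* and *Pdk2* in WT mice (20.4%). *Pgk1*, *Pgam1*, *Pkm*, *Ldha* and *Pdk3* were called lower in both genotypes, which is 83.3% of the 6 genes in miR-155KI mice and 50% of the 10 in WT mice. These comparisons have no library in common.

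**Figure D2:**
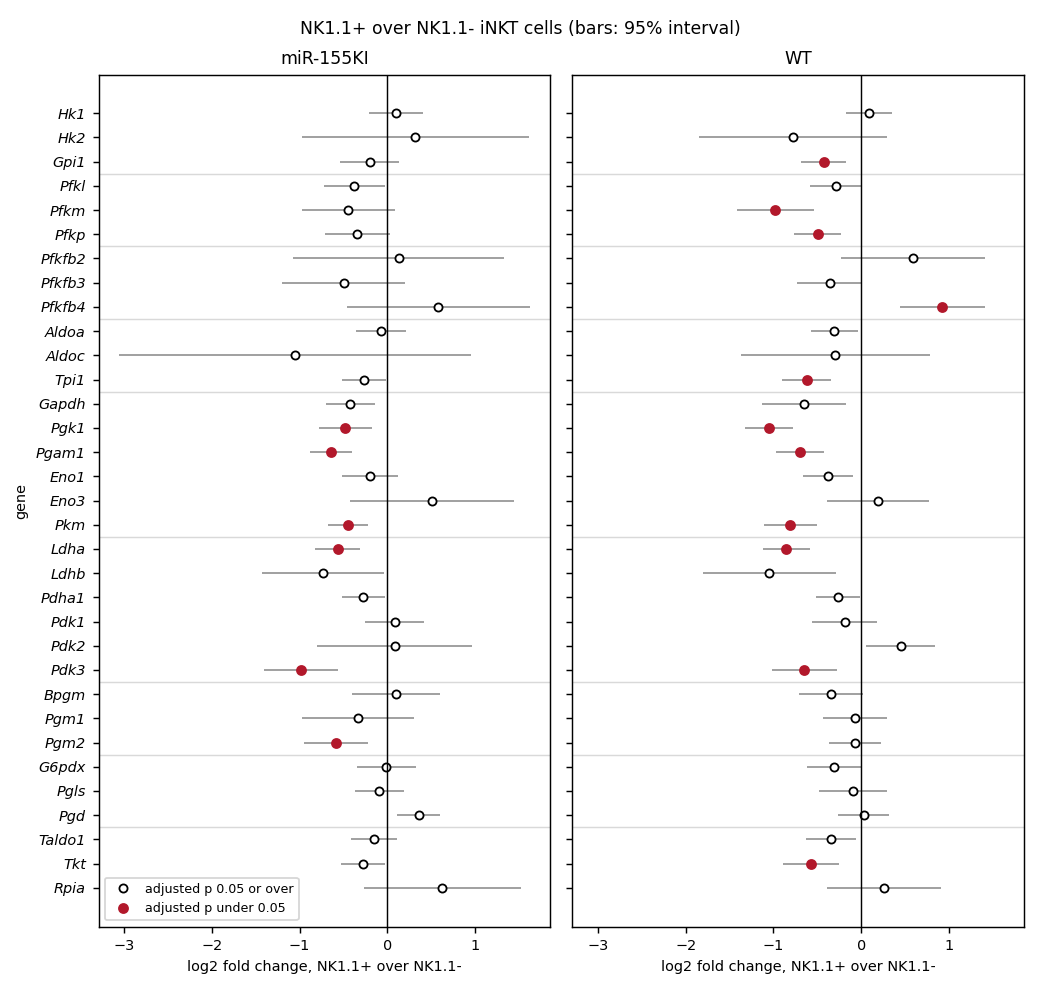
Log2 fold change of NK1.1+ over NK1.1- iNKT cells for each of the 33 genes in miR-155KI mice (left) and WT mice (right), with 95% intervals from edgeR (bars, n = 3 libraries a group). Filled red points passed the adjusted threshold of 0.05; they number 6 on the left, all below 0, and 11 on the right, of which only *Pfkfb4* lies above 0.

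The payoff stage held the most regular differences. *Pgk1* encodes phosphoglycerate kinase, which makes the first ATP of this stage. It had 182, 203 and 227 CPM in the miR-155KI NK1.1+ libraries, against 316, 241 and 294 CPM in the miR-155KI NK1.1- libraries (log2 fold change -0.48 ± 0.13 (SE), edgeR adjusted p = 0.0428). In WT mice it had 159, 189 and 162 CPM in NK1.1+ cells, against 357, 314 and 368 CPM in NK1.1- cells (log2 fold change -1.06 ± 0.12 (SE), edgeR adjusted p = 0.00016). The pools did not overlap in either genotype, and the difference in WT mice was the largest fall among the 33 genes there. *Pgk1* rows may share reads with 4 near-identical copies, of which 2 have rows that sum to 18.6% of its own level, and the gene is X-linked.

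*Pgam1* encodes phosphoglycerate mutase, which moves the phosphate of 3-phosphoglycerate. Its levels were 294, 299 and 298 CPM in the miR-155KI NK1.1+ libraries, against 489, 415 and 487 CPM in the miR-155KI NK1.1- libraries (log2 fold change -0.64 ± 0.11 (SE), edgeR adjusted p = 0.00358). WT NK1.1+ cells had 281, 266 and 248 CPM, against 449.8, 371 and 444 CPM in WT NK1.1- cells (log2 fold change -0.70 ± 0.12 (SE), edgeR adjusted p = 0.00201). All 6 NK1.1+ libraries were below all 6 NK1.1- libraries, and *Pgam1* was the only gene of the 33 that was called lower in both genotypes under each of the 13 alternatives tried per genotype.

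Pyruvate kinase M, encoded by *Pkm*, forms pyruvate and the last ATP of the pathway. *Pkm* had 929, 949 and 936 CPM in the miR-155KI NK1.1+ libraries, against 1385, 1184 and 1269 CPM in the miR-155KI NK1.1- libraries (log2 fold change -0.45 ± 0.10 (SE), edgeR adjusted p = 0.0185). In WT mice NK1.1+ cells had 926, 1018 and 829 CPM, against 1378, 1554 and 1817 CPM in NK1.1- cells (log2 fold change -0.81 ± 0.14 (SE), edgeR adjusted p = 0.00179). Again the pools were separate in both genotypes. The table gives 1 value per gene, so the splice forms M1 and M2 of *Pkm* were not told apart.

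The other payoff genes pointed the same way without passing in the main fits, apart from *Eno3*. *Eno1*, the main enolase, had 868, 1051 and 936 CPM in the miR-155KI NK1.1+ libraries, against 1119, 886 and 1277 CPM in the miR-155KI NK1.1- libraries, and 1026, 962 and 826 CPM in WT NK1.1+ cells, against 1186, 1093 and 1313 CPM in WT NK1.1- cells. The groups overlapped in miR-155KI mice and were separate in WT mice (log2 fold changes -0.20 and -0.38, edgeR adjusted p = 0.414 and 0.0579). *Gapdh* had log2 fold changes of -0.42 ± 0.13 in miR-155KI mice and -0.65 ± 0.21 in WT mice (SE), with edgeR adjusted p = 0.0501 and 0.0557. In WT mice *Gapdh* passed with the replicate number as a block. *Eno3*, the enolase of muscle, was low, with 7.49, 21.6 and 11.0 CPM in the miR-155KI NK1.1+ libraries, and its log2 fold changes of 0.51 and 0.19 did not pass. Without miR-155KI NK1.1+ replicate 2 the first was -0.029.

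Of the genes of pyruvate fate, *Ldha* and *Pdk3* were called lower in both genotypes. *Ldha* encodes the subunit of lactate dehydrogenase that favours lactate formation. It had 784, 977 and 843 CPM in the miR-155KI NK1.1+ libraries, against 1286, 1207 and 1367 CPM in the miR-155KI NK1.1- libraries (log2 fold change -0.57 ± 0.12 (SE), edgeR adjusted p = 0.0106). WT NK1.1+ cells had 903, 891 and 779 CPM, against 1458, 1421 and 1672 CPM in WT NK1.1- cells (log2 fold change -0.85 ± 0.12 (SE), edgeR adjusted p = 0.000586). Every NK1.1+ library was below every NK1.1- library. *Ldhb*, the other subunit gene, had 30.1, 16.1 and 33.6 CPM in WT NK1.1+ cells, against 60.8, 33.9 and 66.8 CPM in WT NK1.1- cells. These were barely separate and not called in the main fit, but *Ldhb* passed there with the replicate number as a block. Its pools overlapped in miR-155KI mice and were not called.

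*Pdk3* encodes a kinase that inactivates pyruvate dehydrogenase. Its levels were 21.1, 25.7 and 19.7 CPM in the miR-155KI NK1.1+ libraries, against 42.9, 41.0 and 47.7 CPM in the miR-155KI NK1.1- libraries (log2 fold change -0.98 ± 0.19 (SE), edgeR adjusted p = 0.00814). In WT mice they were 27.8, 24.1 and 20.5 CPM in NK1.1+ cells, against 42.2, 33.9 and 34.9 CPM in NK1.1- cells (log2 fold change -0.65 ± 0.17 (SE), edgeR adjusted p = 0.0195). The pools were separate in both genotypes. The other kinases of this step did not pass the test: *Pdk1* had log2 fold changes of 0.09 and -0.19, and *Pdk2* of 0.08 and 0.45, in miR-155KI and WT mice. *Pdha1*, the E1 alpha subunit that they phosphorylate, had -0.27 and -0.27 (edgeR adjusted p = 0.139 and 0.127).

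**Figure D3:**
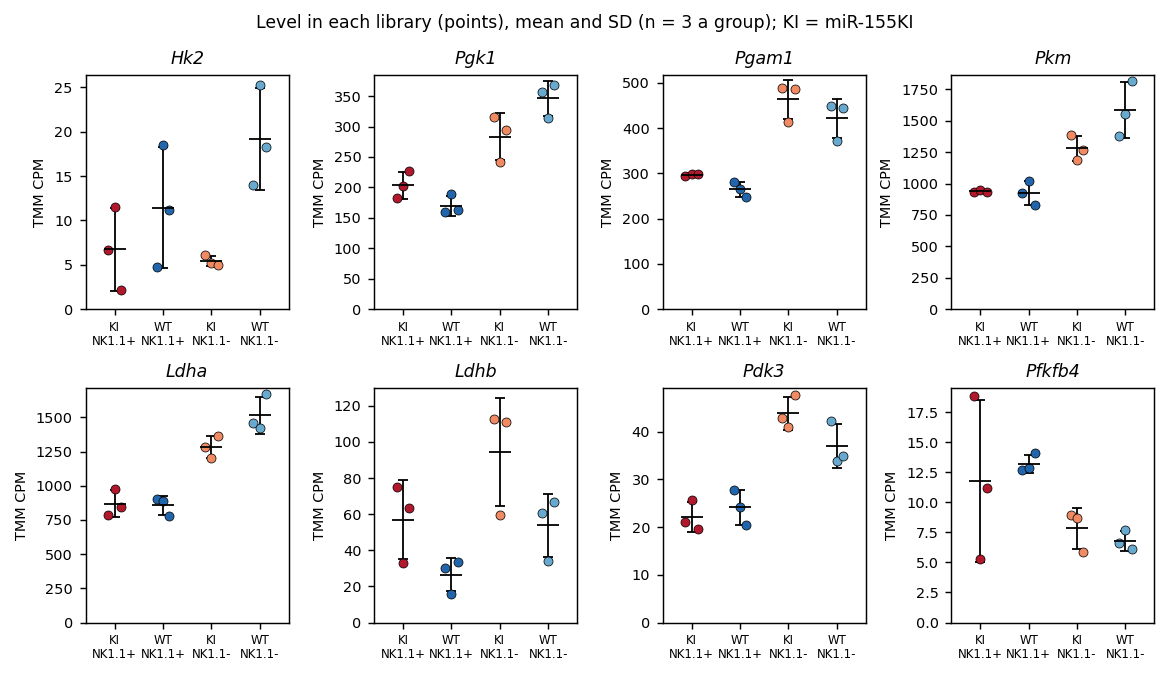
TMM-normalized CPM of 8 genes in each library (points), with the mean and SD of the 3 libraries of a group (bars); groups run from miR-155KI NK1.1+ and WT NK1.1+ on the left to miR-155KI NK1.1- and WT NK1.1- on the right. For *Pgk1*, *Pgam1*, *Pkm*, *Ldha* and *Pdk3* the NK1.1+ points of a genotype lie below its NK1.1- points, and for *Hk2* the miR-155KI NK1.1- points (4.98 to 6.08 CPM) lie below the WT NK1.1- points (14.0 to 25.3 CPM).

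In the upper steps of glycolysis the called differences were in WT mice. The spread between libraries of a group was larger in the miR-155KI fit (biological coefficient of variation 0.353, against 0.238 in the WT fit). For none of the 33 genes was the pool difference shown to differ between the genotypes, as tested below. *Gpi1*, the isomerase that turns glucose-6-phosphate into fructose-6-phosphate, had 439.9, 464 and 443 CPM in WT NK1.1+ cells, against 578, 546 and 651 CPM in WT NK1.1- cells (log2 fold change -0.43 ± 0.12 (SE), edgeR adjusted p = 0.0217). In miR-155KI mice its values were 403, 609 and 463 CPM in NK1.1+ cells, against 575, 544 and 579 CPM in NK1.1- cells, and overlapped (log2 fold change -0.20 ± 0.15 (SE), edgeR adjusted p = 0.432). *Tpi1*, triosephosphate isomerase, had 228, 216 and 181 CPM in WT NK1.1+ cells, against 311, 301 and 329 CPM in WT NK1.1- cells (log2 fold change -0.62 ± 0.13 (SE), edgeR adjusted p = 0.0048). Its miR-155KI values of 229, 199 and 211 CPM in NK1.1+ cells and 267, 231 and 269 CPM in NK1.1- cells were also separate but did not pass (log2 fold change -0.26 ± 0.11 (SE), edgeR adjusted p = 0.163). *Aldoa*, the main aldolase, had 589, 757 and 805 CPM in the miR-155KI NK1.1+ libraries, against 752, 737 and 768 CPM in the miR-155KI NK1.1- libraries, and 789.9, 687 and 653 CPM in WT NK1.1+ cells, against 813, 844 and 918 CPM in WT NK1.1- cells. Only the WT pools of *Aldoa* were separate, and neither difference passed (edgeR adjusted p = 0.783 and 0.104).

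Phosphofructokinase-1, the committing step, is built from liver (*Pfkl*), muscle (*Pfkm*) and platelet (*Pfkp*) type subunits. *Pfkm* had 11.8, 11.3 and 12.3 CPM in WT NK1.1+ cells, against 26.3, 17.6 and 24.6 CPM in WT NK1.1- cells (log2 fold change -0.98 ± 0.20 (SE), edgeR adjusted p = 0.00479). Its miR-155KI values were 16.8, 15.4 and 22.3 CPM in NK1.1+ cells and 24.3, 27.3 and 22.5 CPM in NK1.1- cells (log2 fold change -0.44 ± 0.24 (SE), edgeR adjusted p = 0.267). Both pairs of pools were separate, that of miR-155KI mice by a margin smaller than the spread within a pool. *Pfkp* had 135, 162 and 151 CPM in WT NK1.1+ cells, against 208, 219 and 190.5 CPM in WT NK1.1- cells (log2 fold change -0.50 ± 0.12 (SE), edgeR adjusted p = 0.0146), and 175, 174 and 116 CPM in the miR-155KI NK1.1+ libraries, against 201, 180.1 and 207 CPM in the miR-155KI NK1.1- libraries (log2 fold change -0.34 ± 0.16 (SE), edgeR adjusted p = 0.213). *Pfkp* shares transcript sequence with the annotated gene *Pitrm1*, whose row amounts to 25.7% of the level of *Pfkp*, so reads of the shared part may have been split. For *Pfkl*, the most abundant subunit per kilobase by a small margin (43.3 CPM per kb, against 42.6 for *Pfkp*), miR-155KI cells had 138, 155 and 122 CPM in NK1.1+ cells and 217, 159.5 and 163 CPM in NK1.1- cells, and WT cells had 160.1, 138 and 150.4 CPM in NK1.1+ cells and 155, 174 and 207 CPM in NK1.1- cells, without passing in either (edgeR adjusted p = 0.146 and 0.162). The pools of *Pfkp* were separate in both genotypes, and those of *Pfkl* in miR-155KI mice only.

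The bifunctional enzymes that set fructose-2,6-bisphosphate, the allosteric activator of phosphofructokinase-1, differed from the enzymes above. *Pfkfb4*, the single gene called higher, had 12.7, 12.8 and 14.1 CPM in WT NK1.1+ cells, against 6.63, 7.67 and 6.08 CPM in WT NK1.1- cells (log2 fold change 0.93 ± 0.22 (SE), edgeR adjusted p = 0.0119). In miR-155KI mice its NK1.1+ libraries were scattered, with 18.8, 5.32 and 11.2 CPM, against 8.91, 8.72 and 5.89 CPM in NK1.1- cells (log2 fold change 0.58 ± 0.47 (SE), edgeR adjusted p = 0.479). All 3 NK1.1- values lay within the range of the NK1.1+ values. *Pfkfb3*, the most abundant of the family per kilobase, had 35.6, 75.6 and 28.9 CPM in the miR-155KI NK1.1+ libraries and 71.7, 63.9 and 62.8 CPM in the miR-155KI NK1.1- libraries. WT cells had 44.9, 55.1 and 53.2 CPM in the NK1.1+ pool and 49.6, 75.2 and 67.4 CPM in the NK1.1- pool, and *Pfkfb3* did not pass in either genotype (log2 fold changes -0.50 and -0.36). *Pfkfb2* had 0.13 and 0.59 at 2.27 to 9.87 CPM per library.

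Pentose phosphate genes mostly did not pass. *Tkt* encodes transketolase of the non-oxidative arm and had 361, 338 and 299 CPM in WT NK1.1+ cells, against 413, 464 and 575 CPM in WT NK1.1- cells (log2 fold change -0.57 ± 0.14 (SE), edgeR adjusted p = 0.0161). Its values in miR-155KI mice were 361, 305 and 301 CPM in NK1.1+ cells, against 412, 374 and 386 CPM in NK1.1- cells, separate as well but without a call (log2 fold change -0.28 ± 0.11 (SE), edgeR adjusted p = 0.141). *Taldo1*, transaldolase, had the highest level per kilobase of this arm, with 217, 235 and 194 CPM in the miR-155KI NK1.1+ libraries against 228, 230.0 and 261 CPM in the miR-155KI NK1.1- libraries and 219.7, 185 and 180.5 CPM in WT NK1.1+ cells against 245, 216 and 267 CPM in WT NK1.1- cells (edgeR adjusted p = 0.448 and 0.0857). In the oxidative arm *Pgls*, the lactonase, was the most abundant per kilobase. *Pgls* values were 169, 160.2 and 137 CPM in the miR-155KI NK1.1+ libraries, 173, 151 and 172 CPM in the miR-155KI NK1.1- libraries, 185, 170.1 and 154 CPM in WT NK1.1+ cells and 145, 155 and 233 CPM in WT NK1.1- cells, with overlap between pools in both genotypes. *G6pdx*, which opens the arm, had log2 fold changes of -0.01 and -0.31, and *Pgd* of 0.36 and 0.03, in miR-155KI and WT mice. *Pgd*, which yields the second NADPH of the arm, had 168, 153 and 154 CPM in NK1.1+ libraries of miR-155KI mice, all above the 121, 120.3 and 129 CPM of the NK1.1- libraries, but was not called (edgeR adjusted p = 0.0562). *Rpia*, ribose-5-phosphate isomerase, had 0.63 and 0.26, with 4.68 to 11.1 CPM per library.

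Of the side steps, *Pgm2* was called lower in miR-155KI mice and not in WT mice. This phosphoglucomutase gene had 39.5, 46.6 and 56.5 CPM in the miR-155KI NK1.1+ libraries, against 67.7, 75.0 and 71.0 CPM in the miR-155KI NK1.1- libraries (log2 fold change -0.58 ± 0.16 (SE), edgeR adjusted p = 0.0418). WT pools overlapped, with 53.4, 58.5 and 54.6 CPM in NK1.1+ cells and 49.9, 58.4 and 62.6 CPM in NK1.1- cells (log2 fold change -0.07 ± 0.14 (SE), edgeR adjusted p = 0.769). The difference between these differences did not pass over all genes (log2 -0.55 ± 0.21, unadjusted p = 0.022, edgeR adjusted p = 0.527). The symbols *Pgm1* and *Pgm2* were exchanged between releases of the mouse annotation, and rows were taken here by symbol. *Pgm1* and *Bpgm*, the bisphosphoglycerate mutase, did not pass in either genotype (log2 fold changes -0.33 and -0.07, and 0.10 and -0.34).

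Several of these calls were lost in fits that left out 1 library, which also have fewer libraries to test with. Over all genes such fits called 788 to 2542 in miR-155KI and 1832 to 3264 in WT mice. In miR-155KI mice the 6 calls became 1, *Pgam1*, without NK1.1- replicate 1 or without NK1.1- replicate 3, and 3 without NK1.1+ replicate 3. In WT mice the 11 calls became 6 without NK1.1+ replicate 3 (*Pfkm*, *Tpi1*, *Pgk1*, *Pgam1*, *Pkm* and *Ldha*, all lower). Same-numbered WT libraries varied jointly across genes, and with the replicate number as a block 16 genes were lower and 1 higher in WT NK1.1+ cells, where 15.2% of all genes tested were lower and 14.7% higher. *Hk2* (-0.91), *Gapdh* (-0.60) and *Ldhb* (-1.06, log2 fold changes with the block) then also passed.

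Cycling genes moved with the same pools. The summed level of 12 markers of dividing cells was 362 to 731 CPM in miR-155KI NK1.1+ libraries, against 901 to 1261 CPM in miR-155KI NK1.1- libraries, and 8 of the 12 were called lower. It was 275 to 383 CPM in WT NK1.1+ libraries, against 1002 to 1573 CPM in WT NK1.1- libraries, and all 12 were called lower. None of them was at 0 in a group. Markers of macrophages and dendritic cells summed to 584 to 1366 CPM in miR-155KI NK1.1+ libraries, highest in replicate 2, against 176 to 234 CPM in miR-155KI NK1.1- libraries (6 of 12 called higher, none at 0), and to 278 to 389.6 CPM in WT NK1.1+ libraries, against 156 to 299.8 CPM in WT NK1.1- libraries (1 of 12, *Fcer1g*, called higher at 187 ± 47.2 CPM in NK1.1+ against 26.7 ± 7.01 CPM in NK1.1- libraries, SD, n = 3). The other markers leaned the other way in WT mice, with 8 of the 12 log2 fold changes below 0 and a median of -0.86. B cell markers summed to 259 to 317 CPM in miR-155KI NK1.1+ libraries, against 95.9 to 158 CPM in miR-155KI NK1.1- libraries (2 of 8 called higher, 1 lower), and to 238 to 296 CPM in WT NK1.1+ libraries, against 153 to 292 CPM in WT NK1.1- libraries (1 of 8 called lower). Double-positive thymocyte markers summed to 211 CPM in miR-155KI NK1.1+ replicate 1 and to 45.2 CPM or less in each of the other 11 libraries. The part of these cells in the differences above was not tested.

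The second question was how miR-155KI and WT cells differ within a pool. Cre was present only in miR-155KI mice, and only WT replicate 1 of each pool shared their high *Ddx3y*. MiR-155 and Cre can therefore not be told apart here, and sex-linked differences only through WT replicate 1. In NK1.1- cells 1 of the 33 genes, *Hk2*, was lower in miR-155KI than in WT mice and none was higher, where 1.5% of all genes tested were lower and 1.93% higher, 3.44% in all. The median log2 fold change of the 33 genes was -0.09, against -0.0010 over all genes tested. In NK1.1+ cells none of the 33 genes was called, where 0.0231% of all genes tested were called. There 2 genes, *Ldhb* and *Bpgm*, had an unadjusted p under 0.05 (11.8% of all genes tested), and DESeq2 and limma-voom called none of the 33 either. In this comparison macrophage and dendritic markers summed to 584 to 1366 CPM in miR-155KI libraries and 278 to 389.6 CPM in WT libraries (2 of 12 called higher, *C1qa* and *C1qc*), and cycling markers to 362 to 731 CPM in miR-155KI libraries and 275 to 383 CPM in WT libraries (none of 12 called by edgeR, 7 at an unadjusted p under 0.05), and their part was not tested.

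**Figure D4:**
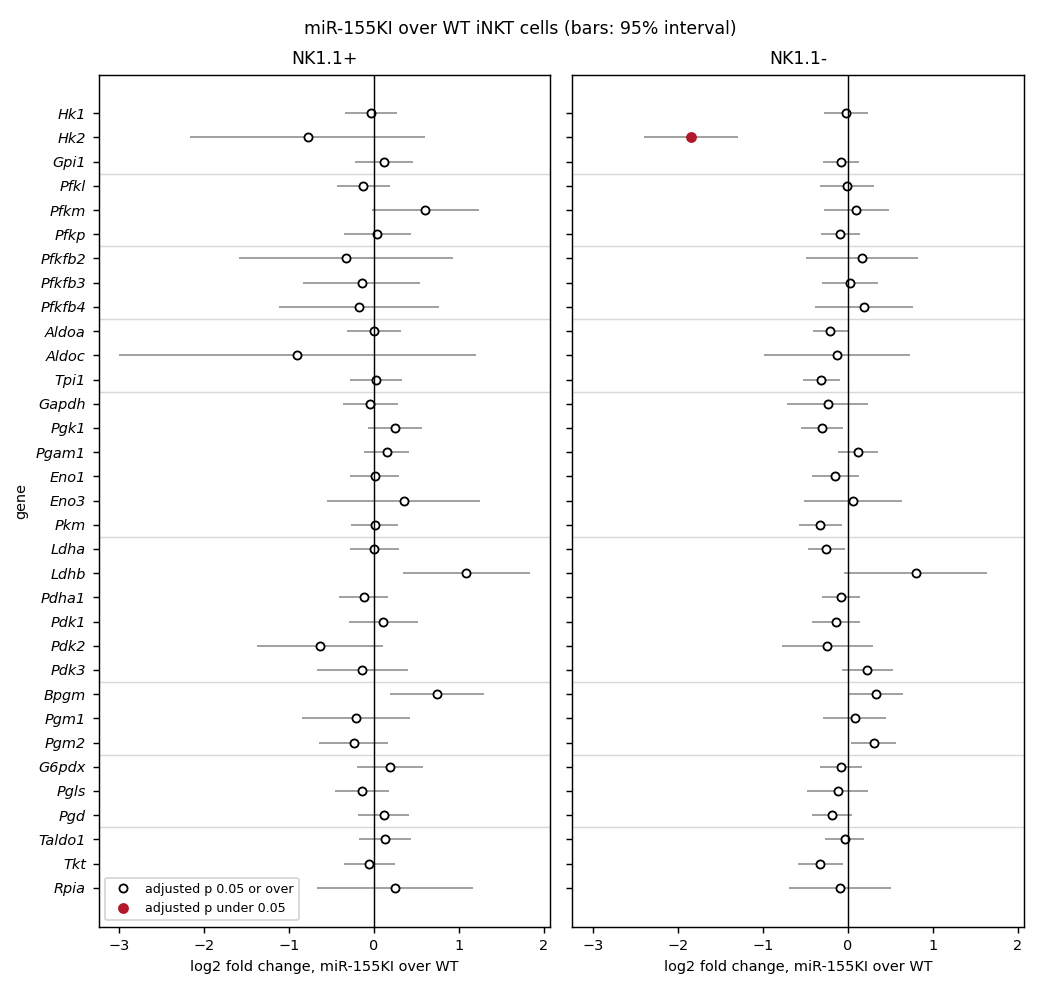
Log2 fold change of miR-155KI over WT iNKT cells for each of the 33 genes in the NK1.1+ pool (left) and the NK1.1- pool (right), with 95% intervals from edgeR (bars, n = 3 libraries a group). The single filled red point that passed the adjusted threshold of 0.05 is *Hk2* in the NK1.1- pool at -1.85; *Ldhb* lies above 0 in both pools (1.09 and 0.80) without passing in these fits.

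*Hk2* (chr6:82725025-82774454, minus strand, GRCm38) encodes hexokinase 2, the inducible hexokinase that binds mitochondria and rises in activated T cells. It had 6.08, 5.19 and 4.98 CPM in the miR-155KI NK1.1- libraries, against 14.0, 25.3 and 18.3 CPM in WT NK1.1- cells (log2 fold change -1.85 ± 0.26 (SE), edgeR adjusted p = 0.00145). The groups were well apart, and the miR-155KI libraries agreed closely. In NK1.1+ cells both groups were scattered, with 6.63, 11.5 and 2.14 CPM in miR-155KI cells and 4.75, 18.5 and 11.2 CPM in WT cells, and overlapped (log2 fold change -0.78 ± 0.63 (SE), edgeR adjusted p = 0.668, 95% interval -2.16 to 0.60), and against WT replicate 1 alone the direction turned (0.50). The genotype effect in NK1.1+ cells minus that in NK1.1- cells was 1.06 ± 0.72 on the log2 scale (edgeR adjusted p = 0.783), so the effects of the pools were not shown to differ. WT NK1.1- replicate 1, the WT library of that pool without high *Xist*, had the lowest WT value. With it as the only control, and assumed to vary like the others, the log2 fold change of *Hk2* was -1.36 with edgeR adjusted p = 0.0946. *Hk2* also did not pass when all 12 libraries were fitted together (-1.82, edgeR adjusted p = 0.147), where the spread of the NK1.1+ libraries enters. Leaving out each of the 6 libraries in turn kept the call. In this comparison the cycling markers summed to 901 to 1261 CPM in miR-155KI and 1002 to 1573 CPM in WT libraries (1 of 12 called lower). All 12 of their log2 fold changes were below 0, with a median of -0.24. Of 8 iNKT and T cell markers, *Klrb1c*, *Tbx21* and *Il2rb* were lower in miR-155KI libraries (log2 fold changes -0.71, -1.23 and -0.51). B cell markers summed to 95.9 to 158 CPM in miR-155KI and 153 to 292 CPM in WT libraries, with all 7 tested below 0 and none called by edgeR (1 at an unadjusted p under 0.05). The part of these markers' cells was not tested.

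*Hk1*, the constitutive hexokinase, made up most of the hexokinase RNA and did not pass. Its levels were 200.2, 161 and 168 CPM in the miR-155KI NK1.1- libraries, against 168, 163 and 199 CPM in WT NK1.1- cells, with overlap (log2 fold change -0.02, 95% interval -0.28 to 0.24). Per kilobase, *Hk2* was 2.30, 2.44 and 2.25% of the *Hk1* and *Hk2* sum in the miR-155KI NK1.1- libraries, against 6.06, 10.7 and 6.65% in the WT NK1.1- libraries (exact permutation test, two-sided, p = 0.1, adjusted p = 0.267 over 24 share comparisons). With 3 libraries against 3, p = 0.1 is the smallest that this exact test allows. In NK1.1+ cells the share averaged 2.67% ± 1.68 in miR-155KI and 4.34% ± 2.40 in WT libraries (SD, n = 3 each).

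Besides *Hk2*, 8 of the 33 genes had an unadjusted p under 0.05 between the genotypes in NK1.1- cells without passing over all genes, so 9 of 33 in all, against 18.5% of all genes tested. *Tpi1*, *Aldoa*, *Pgk1*, *Pkm*, *Ldha* and *Tkt* were on the lower side in miR-155KI mice, with log2 fold changes of -0.31, -0.21, -0.30, -0.33, -0.26 and -0.33. *Bpgm* (0.33) and *Pgm2* (0.30) were on the higher side. MiR-155KI values lay wholly below WT values for *Hk2*, *Aldoa*, *Tpi1*, *Ldha* and *Tkt* (5 genes, 9.93% of all genes tested) and wholly above for *Bpgm* and *Pgm2* (13.2%). The smallest edgeR adjusted p of these 8 was 0.115, for *Tpi1*. In NK1.1+ cells the same 8 genes had log2 fold changes of 0.02, -0.00044, 0.25, 0.01, 0.0018 and -0.06 for the first 6, and 0.74 and -0.24 for *Bpgm* and *Pgm2*. Groups of NK1.1+ cells did not overlap for *Pfkm*, *Pgam1* and *Bpgm*, which were wholly above WT in miR-155KI mice (8.46% of all genes tested), and for *Pdha1* and *Pdk2*, which were wholly below (8.34%). *Bpgm* was the gene outside the WT range on the same side in both pools, with 29.4, 38.6 and 24.2 CPM in NK1.1+ and 31.3, 26.6 and 28.4 CPM in NK1.1- cells of miR-155KI mice, against 20.2, 17.8 and 16.8 CPM in NK1.1+ and 22.1, 23.1 and 22.9 CPM in NK1.1- cells of WT mice (edgeR adjusted p = 0.308 and 0.265).

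The difference between the genotype effects of the pools was tested over all 12 libraries, and none of the 33 genes passed, where 0.0278% of all genes tested were called, 0.00694% higher and 0.0208% lower. An unadjusted p under 0.05 was reached by 2 of them (8.1% of all genes tested), and none passed with DESeq2 or limma-voom. They were *Pgk1* (log2 0.55 ± 0.18, SE, edgeR adjusted p = 0.394) and *Pgm2*. For *Pgk1* the miR-155KI libraries had 182, 203 and 227 CPM in NK1.1+ cells, against 159, 189 and 162 CPM in WT NK1.1+ cells, and 316, 241 and 294 CPM in NK1.1- cells, against 357, 314 and 368 CPM in WT NK1.1- cells. The genotypes overlapped in both pools, with 2 of the 3 miR-155KI libraries above all WT libraries in NK1.1+ cells and 2 of the 3 below all WT libraries in NK1.1- cells. WT replicate 1, without high *Xist*, was below all 3 miR-155KI libraries in NK1.1+ cells and above all 3 in NK1.1- cells for this X-linked gene.

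*Ldhb*, the lactate dehydrogenase subunit that favours pyruvate formation, had the largest positive difference between the genotypes in both pools, and its values are given here because of that. It had 74.9, 32.7 and 63.3 CPM in the miR-155KI NK1.1+ libraries, against 30.1, 16.1 and 33.6 CPM in WT NK1.1+ cells (log2 fold change 1.09 ± 0.34 (SE), edgeR adjusted p = 0.277; it passed with no filter on low counts, edgeR adjusted p = 0.00152). In NK1.1- cells it had 113, 59.6 and 111 CPM in miR-155KI mice, against 60.8, 33.9 and 66.8 CPM in WT mice (log2 fold change 0.80 ± 0.34 (SE), edgeR adjusted p = 0.296). *Ldhb* passed in NK1.1- cells with the replicate number as a block. The numbers were not taken to pair miR-155KI with WT libraries there (same-numbered r = 0.087, 0.168 and 0.091). The genotypes overlapped in both pools, and replicate 2 was the lowest library in each of the 4 groups. Per kilobase, *Ldhb* was 11.7, 4.45 and 9.46% of the *Ldha* and *Ldhb* sum in miR-155KI NK1.1+ libraries and 4.43, 2.45 and 5.67% in WT NK1.1+ libraries (exact permutation test, two-sided, p = 0.2, adjusted p = 0.48). The share was 10.9, 6.44 and 10.2% in miR-155KI NK1.1- libraries and 5.49, 3.22 and 5.27% in WT NK1.1- libraries (p = 0.1, adjusted p = 0.267 by the same exact test), which did not overlap. Within a genotype the pools overlapped in this share, at 8.55% ± 3.73 for NK1.1+ and 9.15% ± 2.38 for NK1.1- libraries of miR-155KI mice and 4.18% ± 1.63 for NK1.1+ and 4.66% ± 1.25 for NK1.1- libraries of WT mice (SD, n = 3 each).

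**Figure D5:**
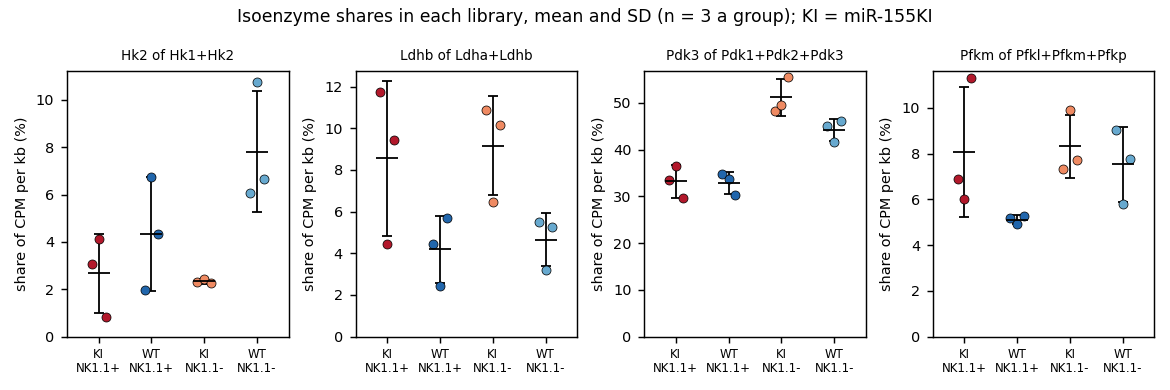
Share of 1 isoenzyme gene in the summed level per kilobase of its step in each library (points), with mean and SD of the 3 libraries of a group (bars): *Hk2* of hexokinase, *Ldhb* of lactate dehydrogenase, *Pdk3* of the pyruvate dehydrogenase kinases and *Pfkm* of phosphofructokinase-1. The *Pdk3* share averaged 33.2% and 32.9% in miR-155KI and WT NK1.1+ cells, and 51.2% and 44.3% in miR-155KI and WT NK1.1- cells.

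Among the pyruvate dehydrogenase kinases *Pdk3* gave 33.6, 36.5 and 29.6% of the summed level per kilobase in miR-155KI NK1.1+ libraries, against 48.3, 49.6 and 55.6% in miR-155KI NK1.1- libraries. In WT mice the shares were 34.8, 33.6 and 30.2% in NK1.1+ libraries, against 45.0, 41.7 and 46.2% in NK1.1- libraries. The pools were separate in both genotypes, at the smallest p that the exact permutation test allows (p = 0.1, adjusted p = 0.267 in each). *Pfkm* gave 8.07% ± 2.84 of phosphofructokinase-1 in miR-155KI NK1.1+ and 8.32% ± 1.40 in miR-155KI NK1.1- libraries, and 5.12% ± 0.186 in WT NK1.1+ and 7.54% ± 1.64 in WT NK1.1- libraries (SD, n = 3 each). *Aldoc* was at most 0.267% of aldolase in any library, and *Eno3* gave 1.74% ± 0.774 of enolase in miR-155KI NK1.1+ libraries, its highest group mean, and 0.975% ± 0.331 in WT NK1.1- libraries, its lowest (SD, n = 3 each).

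Promoter sequences were examined because hypoxia-inducible factors and MYC are known regulators of glycolytic genes. The windows run from 250 bases before to 50 after a RefSeq start site (GRCm38.p6), and all 33 genes matched, with 50 windows. The core of the hypoxia response element, ACGTG on either strand, was found in a window of 17 of the 33 genes (51.5%), against 28.9% of the genes tested that have a window. A gene counted if any of its windows matched, so genes with more windows had more chances. By window it was 21 of 50 (42.0%), against 19.6% of all windows, which include genes not tested. The E-box CACGTG, which is its own reverse complement and holds ACGTG on both strands, was found in 5 of the 33 (15.2%), against 11.6%. A match describes the letters only. Printed are windows of *Hk2* and of the 5 genes lower in NK1.1+ cells of both genotypes, 5′ to 3′, with each ACGTG or its reverse complement CACGT in capitals.
Hk2, chr6:82774405-82774704, minus strand: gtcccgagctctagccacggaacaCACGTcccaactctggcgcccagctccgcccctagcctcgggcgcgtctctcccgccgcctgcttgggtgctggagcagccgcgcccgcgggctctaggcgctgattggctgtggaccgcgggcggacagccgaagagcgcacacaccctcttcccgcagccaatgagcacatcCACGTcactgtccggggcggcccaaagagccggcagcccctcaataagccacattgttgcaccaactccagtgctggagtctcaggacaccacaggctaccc
Ldha, chr7:46845554-46845853, plus strand: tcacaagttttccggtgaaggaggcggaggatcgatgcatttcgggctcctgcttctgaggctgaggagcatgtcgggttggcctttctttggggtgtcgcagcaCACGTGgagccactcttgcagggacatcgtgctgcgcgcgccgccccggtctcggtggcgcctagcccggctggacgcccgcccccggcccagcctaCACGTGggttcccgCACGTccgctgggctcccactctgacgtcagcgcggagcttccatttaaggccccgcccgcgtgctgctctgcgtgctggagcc
Pgk1, chrX:106186850-106187149, plus strand: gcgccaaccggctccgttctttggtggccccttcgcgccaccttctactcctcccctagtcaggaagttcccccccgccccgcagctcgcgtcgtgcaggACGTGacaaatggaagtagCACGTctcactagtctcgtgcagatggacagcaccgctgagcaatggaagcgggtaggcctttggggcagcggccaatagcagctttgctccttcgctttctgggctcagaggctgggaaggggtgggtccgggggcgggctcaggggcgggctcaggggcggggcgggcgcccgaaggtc
Pgam1, chr19:41911621-41911920, plus strand: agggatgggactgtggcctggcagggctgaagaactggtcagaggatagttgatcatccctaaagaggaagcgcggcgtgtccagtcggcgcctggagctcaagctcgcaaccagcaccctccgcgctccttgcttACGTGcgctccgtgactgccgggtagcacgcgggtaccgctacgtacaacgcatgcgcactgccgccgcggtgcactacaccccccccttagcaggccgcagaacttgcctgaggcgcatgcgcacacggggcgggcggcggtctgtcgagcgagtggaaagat
Pkm, chr9:59656977-59657276, plus strand: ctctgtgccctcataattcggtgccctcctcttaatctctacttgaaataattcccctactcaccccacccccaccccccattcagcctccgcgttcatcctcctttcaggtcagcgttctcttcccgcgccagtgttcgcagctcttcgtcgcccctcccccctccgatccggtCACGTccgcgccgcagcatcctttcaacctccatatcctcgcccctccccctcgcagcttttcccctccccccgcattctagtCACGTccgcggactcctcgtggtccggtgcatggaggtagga
Pdk3, chrX:93832101-93832400, minus strand: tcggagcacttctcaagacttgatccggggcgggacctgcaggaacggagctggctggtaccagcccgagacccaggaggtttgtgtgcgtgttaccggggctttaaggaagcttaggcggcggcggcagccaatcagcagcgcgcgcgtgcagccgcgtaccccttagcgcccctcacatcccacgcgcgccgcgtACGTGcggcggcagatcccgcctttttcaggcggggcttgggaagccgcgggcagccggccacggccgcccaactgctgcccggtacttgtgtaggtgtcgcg
The *Ldha* window holds 5 matches on the 2 strands, of which 4 belong to 2 E-boxes. Those of *Hk2*, *Pgk1* and *Pkm* hold 2 matches each, none within an E-box, and those of *Pgam1* and *Pdk3* hold 1 each. The second windows of *Ldha* and *Pkm* hold none. Of the other genes called in the pools, *Pfkm* and *Pgm2* had a match, and *Gpi1*, *Tpi1*, *Pfkp*, *Tkt* and *Pfkfb4* had none in these windows.

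MiR-155 lowers transcripts that pair with its seed, and the mature sequence (RefSeq, chr16:84714143-84714165, GRCm38.p6) is shown with the seed, bases 2 to 8, in capitals.
mmu-miR-155-5p: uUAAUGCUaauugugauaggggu
The reverse complement of the seed, AGCATTA, was looked for in annotated 3′ UTRs (GENCODE M21). It was present in 1 of the 33 genes (3.03%), against 9.75% of the genes tested, and the 8-base form AGCATTAA in none, against 3.56%. The single gene was *Pdk1*, with the site at base 985 of a 3′ UTR of 3734 bases, shown with its flanks and the match in capitals.
*Pdk1* site: tgcaagctaaAGCATTAgcgggaagac
*Pdk1* had 66.9, 91.4 and 72.1 CPM in the miR-155KI NK1.1+ libraries, against 84.7, 67.3 and 60.0 CPM in WT NK1.1+ cells, and 71.0, 73.0 and 73.2 CPM in the miR-155KI NK1.1- libraries, against 91.7, 78.9 and 66.0 CPM in WT NK1.1- cells. The genotypes overlapped in both pools (log2 fold changes 0.11 and -0.14, edgeR adjusted p = 0.87 and 0.61). No match was found in the annotated 3′ UTRs of *Hk2*.

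Genes around the pathway were read from lists. Of 7 tested transporters of glucose and lactate, 1 was higher in NK1.1+ than in NK1.1- cells of miR-155KI mice, and 2 were higher and 2 lower in WT mice (14.1% of all genes tested were called in miR-155KI and 20.8% in WT mice). *Slc2a3*, the glucose transporter GLUT3, was higher in both, at 99.4 ± 15.5 CPM in the miR-155KI NK1.1+ libraries against 56.4 ± 5.53 CPM in NK1.1- cells (log2 fold change 0.82 ± 0.16 (SE), edgeR adjusted p = 0.00807) and 123 ± 12.3 CPM in WT NK1.1+ cells against 60.6 ± 10.6 CPM in NK1.1- cells (log2 fold change 0.99 ± 0.15 (SE), edgeR adjusted p = 0.000914; levels are means ± SD, n = 3). *Slc2a8* was higher in WT NK1.1+ cells too (0.90). The lactate transporters *Slc16a1* (-0.74) and *Slc16a3* (-0.74), also known as MCT1 and MCT4, were lower there. Between the genotypes edgeR called no transporter in either pool (1 of 7 at an unadjusted p under 0.05 in the NK1.1+ pool and 2 in the NK1.1- pool, where 11.8% and 18.5% of all genes tested were).

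Of 9 tested isoenzymes outside the 33 genes, 2 were lower in NK1.1+ cells of miR-155KI mice and 4 in those of WT mice, where 6.15% and 10.9% of all genes tested were lower, and none was higher. *Pgam2*, the muscle phosphoglycerate mutase, had log2 fold changes of -3.26 ± 0.62 in miR-155KI and -1.86 ± 0.43 in WT mice (SE), and *Eno2*, the neuronal enolase, -2.55 ± 0.49 and -1.68 ± 0.40, at levels of 10.9 CPM or less in every group mean. *Minpp1*, an inositol polyphosphate phosphatase (-0.61) and *Ldhd*, a mitochondrial D-lactate dehydrogenase (-1.28), were lower in WT mice. In 9 tested genes of pyruvate entry into mitochondria, *Pcx*, pyruvate carboxylase, was lower in WT NK1.1+ cells (-1.31), and none was called in miR-155KI mice. Among 8 tested pentose phosphate and ribose genes outside the 33, *H6pd*, the glucose-6-phosphate dehydrogenase of the endoplasmic reticulum, was higher (1.34 and 0.98) and *Dera*, which cleaves deoxyribose phosphate, was lower (-0.59 and -0.95) in NK1.1+ cells of miR-155KI and WT mice. EdgeR called none of these isoenzyme, pyruvate and pentose genes between the genotypes. An unadjusted p under 0.05 was reached by 4 isoenzymes in NK1.1- cells and by 1 pentose gene in the NK1.1+ pool and 2 in the NK1.1- pool (11.8% of all genes tested in the NK1.1+ pool and 18.5% in the NK1.1- pool).

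Of 21 tested regulators of these pathways, 3 were higher and 4 lower in NK1.1+ cells of miR-155KI mice, and 3 higher and 1 lower in WT mice. Of all genes tested, 7.92% were higher and 6.15% lower in miR-155KI mice, and 9.89% higher and 10.9% lower in WT mice. *Txnip*, which restrains glucose uptake, was higher in both (1.32 ± 0.17 and 1.09 ± 0.11, log2 ± SE), at 298 ± 60.0 CPM in the miR-155KI NK1.1+ libraries against 119 ± 18.7 CPM in NK1.1- cells and 261 ± 13.5 CPM in WT NK1.1+ cells against 120.1 ± 1.74 CPM in NK1.1- cells (SD, n = 3). *Hif1a*, the oxygen-regulated subunit of hypoxia-inducible factor, was called lower in NK1.1+ cells of miR-155KI mice, with 84.6, 80.5 and 102 CPM against 159, 163 and 145 CPM in NK1.1- cells (log2 fold change -0.81 ± 0.13 (SE), edgeR adjusted p = 0.00319). In WT mice it had 107, 134 and 139.7 CPM in NK1.1+ cells and 153, 209.9 and 156 CPM in NK1.1- cells (log2 fold change -0.48 ± 0.16 (SE), edgeR adjusted p = 0.0537). *Epas1*, which encodes HIF-2 alpha, was lower in miR-155KI NK1.1+ cells (-2.27). In WT mice *Epas1* averaged 34.6 ± 16.7 CPM in NK1.1+ and 29.7 ± 12.0 CPM in NK1.1- libraries (SD, n = 3). *Mlxip*, a glucose-sensing factor, was higher in both genotypes (0.77 and 0.90). *Egln3*, a HIF prolyl hydroxylase, was lower (-1.59 and -2.30) and *Rptor*, the mTORC1 scaffold, was higher (0.71 and 1.15) in NK1.1+ cells of miR-155KI and WT mice. EdgeR called no regulator between the genotypes (5 of 21 at an unadjusted p under 0.05 in the NK1.1+ pool, against 11.8% of all genes tested, and 1 in the NK1.1- pool, against 18.5%).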

How the data were processed

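Deposited were the authors' whole-number counts, and their normalized CPM, a signal equal to the count times 1 factor per library, which was checked but not tested. The submitters' processing notes name bcl2fastq 2.17.1.14 and GRCm38 (mm10); aligner and counter are not given in the sources used. Counts were fitted in R 4.3.3 with edgeR 4.0.16 (TMM, default filter on low counts, robust quasi-likelihood test, Benjamini-Hochberg adjustment over 12942 to 14401 genes, threshold 0.05). Each comparison was fitted on its own groups, the interaction on all 12 libraries. DESeq2 1.42.0 and limma-voom 3.58.1 were alternatives. Levels are TMM-normalized CPM, divided by the longest GENCODE M21 coding transcript between genes. Near-identical transcripts were searched with blastn 2.17.0.

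In simulated counts edgeR found 20.9% of 1.5-fold, 64.2% of 2-fold and 86.4% of 4-fold changes for the genotypes in NK1.1- cells. For the genotypes in NK1.1+ cells it found 4.48%, 29.9% and 59.1% of them. Of simulated 2-fold changes, edgeR found 34.3% between the pools of either genotype and 10.4% in the interaction. Many simulated 2-fold changes were thus missed. These rates were not worked out for the pathway genes alone, of which 17 averaged over 100 CPM. How often a real 2-fold change in a pathway gene would be missed was not tested.

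The 33 genes and the lists were chosen with earlier results of these data known. Genes named with values in every library were those past the threshold and the most abundant of each step; of each other list at most 4 per comparison, by p, with 1 result not reported here. *Eno1*, *Eno3*, *Gapdh*, *Hk1*, *Aldoc*, *Pfkl*, *Taldo1*, *Pgd*, *Bpgm*, *Ldhb*, *Pdk1*, *Hif1a* in WT mice, *Egln3* and *Rptor* in miR-155KI mice, and the markers named were added after their values were seen. Replicate numbers were taken to pair the WT pools, whose same-numbered libraries deviated together (r = 0.338, 0.255 and 0.136). Same-numbered r were mostly smaller between the miR-155KI pools (0.126, 0.083 and 0.067) and between the genotypes in NK1.1- cells (0.087, 0.168 and 0.091). These were not taken as pairs, nor were the genotypes in NK1.1+ cells (-0.060, 0.016 and 0.0098). The main fits held no block.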

Additional observations from a re-analysis of the deposited data

How the results depend on the processing

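The 33 genes gave 0 calls in the interaction under every alternative run, and *Pgk1*, *Pgam1*, *Pkm*, *Ldha*, *Tpi1* and *Pfkm* in WT mice and *Pgam1* in miR-155KI mice kept their pool calls in each of the 13 alternatives.

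The genotype calls in NK1.1- cells became 2 of the 33 with the replicate block, where *Ldhb* was higher at 0.79 (edgeR adjusted p = 0.000642). The block was not taken as pairing there, although every library, as between the miR-155KI pools, correlated best with its own number. The calls became 0 with all 12 libraries in 1 fit and 1 to 2 leaving out each library (2 without WT NK1.1- replicate 1). In NK1.1+ cells 1 gene was called with no filter on low counts (*Ldhb*, 1.11, edgeR adjusted p = 0.00152), and *Hk2* turned to 0.50 against WT replicate 1 alone. Between the pools, the WT calls became 17 with the replicate block and 6 to 15 leaving out each library, and the miR-155KI calls 1 to 6, with the replicate block at 7. Without miR-155KI NK1.1+ replicate 2, *Eno3* turned to -0.029. The cause of these changes was not tested.

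Leaving out each library, the median log2 fold change of the 33 genes was -0.13 to -0.024 between genotypes in NK1.1- cells, -0.069 to 0.039 between genotypes in NK1.1+ cells, 0.068 to 0.25 for the interaction and -0.32 to -0.16 between the pools of miR-155KI mice.

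Over all genes, 457 were called between genotypes in NK1.1- cells, 962 with DESeq2, 1048 with no filter, 737 with the replicate block, 139 with all 12 libraries, 157 with WT replicate 1 alone and 186 to 917 leaving out each library. In NK1.1+ cells 3 were called, 241 with DESeq2, 1 with limma-voom, 282 with no filter, 7 with the block, 60 with all 12 libraries, 1 with WT replicate 1 alone and 1 to 125 leaving out each library. The interaction had 4, 7 with RLE scaling, 124 with DESeq2, 0 with limma-voom, 162 with no filter, 10 with at least 10 counts in every library, 23 with the block and 3 to 46 leaving out each library. Between the pools 1832 to 3264 of WT and 788 to 2542 of miR-155KI mice were called leaving out each library.

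Without division by length the shares were 2.98% for *Hk2* in miR-155KI NK1.1- cells. For *Pfkm* they were 3.81% in WT NK1.1+, 6.22% in miR-155KI NK1.1- and 5.62% in WT NK1.1- cells. For *Aldoc* they were 0.316% in WT NK1.1+, 0.339% in miR-155KI NK1.1- and 0.319% in WT NK1.1- cells, and for *Eno3* 1.1% in WT NK1.1+ cells. For *Ldhb* they were 6.76% in miR-155KI NK1.1- and 3.39% in WT NK1.1- cells, and for *Pdk3* 19.6% and 20.7% in miR-155KI and WT NK1.1+ and 33.9% and 28.3% in miR-155KI and WT NK1.1- cells. With A or G as the first base of the hypoxia core, 30 of the 33 genes had a match (90.9%, against 66.0% of the genes tested).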

Other observations

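Some genes that connect glycolysis with glycogen and other hexoses differed between the pools. *Pygl*, the liver-type glycogen phosphorylase, averaged 8.53 ± 5.41 CPM in the miR-155KI NK1.1+ libraries against 1.21 ± 0.726 CPM in NK1.1- cells (log2 fold change 2.80 ± 0.71 (SE), edgeR adjusted p = 0.0275), and 11.8 ± 2.36 CPM in WT NK1.1+ cells against 2.26 ± 0.472 CPM in NK1.1- cells (log2 fold change 2.35 ± 0.29 (SE), edgeR adjusted p = 0.00024; levels are means ± SD, n = 3). *Pgm2l1*, a glucose-1,6-bisphosphate synthase, was higher in both as well (log2 fold changes 1.26 and 1.17). *Galk1*, galactokinase, was lower in WT NK1.1+ cells (-1.11) and was not called in miR-155KI mice (-0.22).

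Targets of hypoxia-inducible factor outside glycolysis held the only call between the genotypes among the metabolic lists beside that of *Hk2*. Of 13 tested in NK1.1- cells, where 1.5% of all genes tested were lower, *Ndrg1*, a stress-responsive gene, was lower in miR-155KI mice, at 11.7 ± 2.81 CPM against 26.9 ± 2.29 CPM in WT mice (log2 fold change -1.21 ± 0.20 (SE), edgeR adjusted p = 0.00424, mean ± SD, n = 3). Between the pools *Ero1l*, an oxidase of the endoplasmic reticulum, was lower in NK1.1+ cells of both genotypes (-0.79 in miR-155KI and -0.78 in WT mice), as was *Ddit4*, an inhibitor of mTORC1 (-1.36 and -0.84). *Ankrd37* was lower in WT NK1.1+ cells (-1.07). In all, 2 of 12 tested genes of this list were called lower in miR-155KI mice and 3 of 13 in WT mice, and none higher. Of all genes tested, 6.15% and 10.9% were lower. The list had 7 of 12 log2 fold changes above 0 in miR-155KI mice (median 0.24) and 6 of 13 in WT mice (median -0.0050).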
